A study of Mus musculus with 8 samples.

Results

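The cytosolic sulfotransferase genes of the female mouse liver are described here across vehicle and dihydrotestosterone (DHT) treatment. The genes were Sult1a1, Sult1b1, Sult1c2, Sult1d1, Sult2a1, Sult2a2, Sult2a8, Sult3a1 and Sult5a1, chosen by symbol as rows of the deposited expression table that map to a Sult gene, and they made up 9 of the 14317 mouse genes in that table. Liver RNA from 8 female mice was sequenced, with 1 library per mouse, to ask how androgen excess changes liver gene expression under a Western diet (WD). The 4 Con-Veh mice carried an empty silastic pellet and the 4 Con-DHT mice a 10 mm DHT pellet. Both groups were implanted at an age of 7 weeks and kept on WD for 8.5 weeks, so that the comparison holds diet constant and has no chow-fed group. The labels give the genotype as WT, while the study's methods describe females with a floxed allele, which both groups would share, and no Cre is named for these mice.

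Cytosolic sulfotransferases move a sulfonate group from the donor 3'-phosphoadenosine 5'-phosphosulfate (PAPS) to a hydroxyl or amine group of a small molecule, which makes it more soluble in water and usually less active. Enzymes of the SULT1 family act mainly on phenols, catecholamines, thyroid hormones and drugs, and those of the SULT2 family on hydroxysteroids and bile acids. The liver is a main site of these reactions, and some of the genes, such as Sult2a1 and Sult3a1, are known in mice for higher hepatic expression in females than in males.

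In Con-DHT livers, transcripts of Sult2a1 and Sult2a2, hydroxysteroid sulfotransferases, and of Sult3a1, an amine sulfotransferase, fell to between 0 and 42 reads per library. Sult2a8, a hydroxysteroid sulfotransferase of the same subfamily that acts on bile acids, rose 3.21-fold. Sult1a1, Sult1b1, Sult1c2, Sult1d1 and Sult5a1 did not pass the test. Values are the authors' normalized read counts, and differences are on the scale of log2(value + 1), Con-DHT minus Con-Veh, tested with limma and adjusted by the Benjamini-Hochberg method over 14312 genes. All 9 genes passed the filter on low values (a mean of at least 10). Of these 9, 4 passed the threshold of 0.05, 1 higher and 3 lower, against 7.21% of all tested genes (4.60% higher and 2.61% lower). The median difference of the 9 genes was -0.54, against -0.0081 over all tested genes. With edgeR and with DESeq2 on the reads, 3 of the 9 passed, without Sult2a1, against 7.15% and 11.0% of all tested genes. Con-Veh and Con-DHT values were fully separate for 4 of the 9 genes, higher in Con-DHT for Sult2a8 and lower for Sult1d1, Sult2a2 and Sult3a1, against 15.1% of all tested genes (8.49% higher and 6.62% lower).

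**Figure D1:**
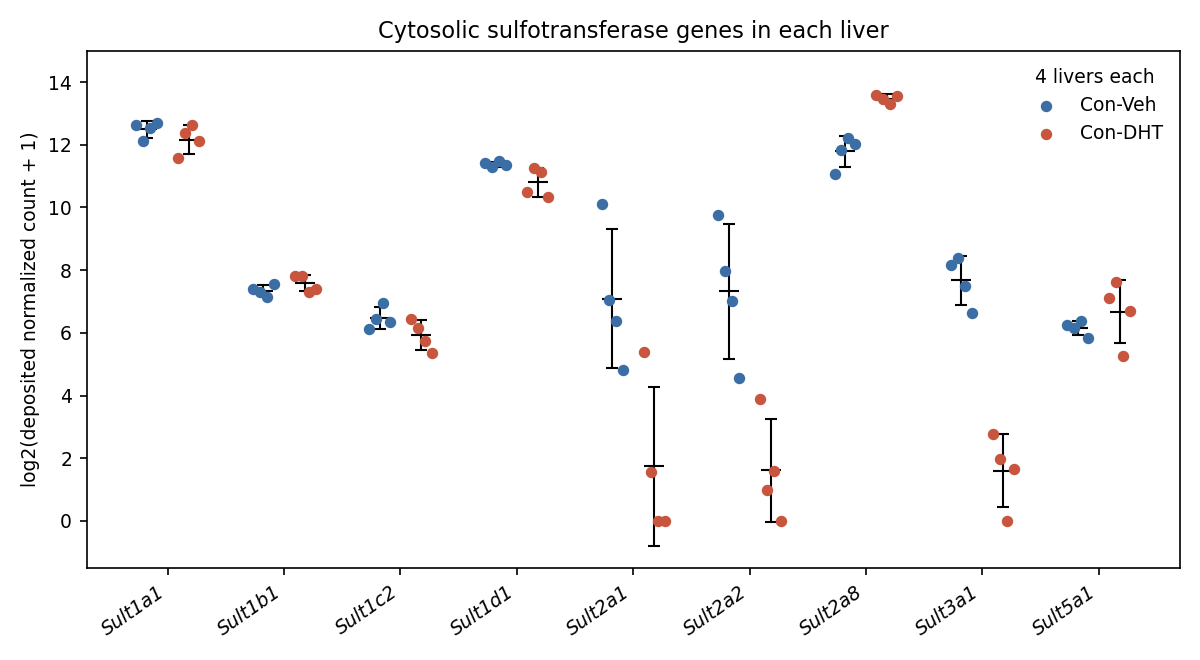
Values of the 9 genes in each liver. The horizontal axis lists the genes and the vertical axis gives log2(deposited normalized count + 1). Each point is 1 liver (4 Con-Veh in blue, 4 Con-DHT in red), and black marks are the mean and SD of the log2 values. The Con-DHT points of Sult2a8 lie above all Con-Veh points, those of Sult2a2 and Sult3a1 lie below them, and 1 Con-DHT point of Sult2a1 lies above the lowest Con-Veh point.

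The Sult2a genes lie on chromosome 7 and resemble each other in sequence, so how far their reads can be told apart is shown first. The coding sequences of Sult2a1 and Sult2a2 were identical at 88.6% of 577 aligned bases. Sult2a8 was identical to Sult2a1 at 69.4% and to Sult2a2 at 66.8%. The Sult2a2 model has 582 coding bases against 855 in Sult2a1, and the alignments charged for internal gaps by length. Where the model lacks an internal part, its later bases may have been aligned to bases that are not their counterparts. The values for Sult2a2 may therefore understate its likeness to the other genes. The first 90 coding bases, taken from GENCODE M21 transcripts (GRCm38) and printed 5′ to 3′ with capitals for letters that differ from Sult2a1, had 0 differences in Sult2a2 and 37 in Sult2a8.
Sult2a1: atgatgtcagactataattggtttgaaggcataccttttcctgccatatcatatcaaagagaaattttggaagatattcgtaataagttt
Sult2a2: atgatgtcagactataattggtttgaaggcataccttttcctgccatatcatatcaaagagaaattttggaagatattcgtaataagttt
Sult2a8: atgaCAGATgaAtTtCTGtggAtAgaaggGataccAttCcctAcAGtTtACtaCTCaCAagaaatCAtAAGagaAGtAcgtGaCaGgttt
In the alignment of Sult2a1 with Sult2a2, the window of 90 aligned bases with the most differences had 16. It covers coding bases 406 to 495 of Sult2a1, and the differences lie towards its 3′ end. From the first capital on, the Sult2a2 letters may belong to a later part of the coding sequence. The capitals are therefore not shown to be changed letters at the same position.
Sult2a1: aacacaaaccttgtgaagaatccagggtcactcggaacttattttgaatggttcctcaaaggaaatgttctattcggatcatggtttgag
Sult2a2: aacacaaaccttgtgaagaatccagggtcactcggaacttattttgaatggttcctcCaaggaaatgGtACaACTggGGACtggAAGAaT
Over the whole transcripts, 93.7% of the 150-base stretches of Sult2a1 and 79.4% of those of Sult2a2 occurred in no other annotated gene, against 100% for each of the other 7 genes. Since uniquely mapped reads were counted, reads that fitted both genes equally were lost rather than split. Sequencing was paired-end, so a read in a shared stretch can still be placed by its mate. How many reads were lost was not measured, and small differences between Sult2a1 and Sult2a2 are uncertain. The annotated Sult2a2 transcript is also short, with 741 exonic bases in 4 exons against 1020 in 6 exons for Sult2a1, so its level per kilobase is uncertain.

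Sult2a1 lies at chr7:13796246-13837409 on the minus strand (GRCm38, GENCODE M21, as for all positions of genes here) and encodes the enzyme known for sulfating dehydroepiandrosterone and bile acids. Its normalized counts were 1115, 131, 82.9 and 26.98 in Con-Veh and 41.2, 1.94, 0 and 0 in Con-DHT. Con-Veh 1 was far above the other Con-Veh livers, and Con-DHT 1 was above Con-Veh 4, so the groups overlapped. The difference was -5.35 (SE 1.31, adjusted p = 0.036, limma). Summed over the group, Con-Veh held 1264 reads and Con-DHT 44, a ratio per normalized depth of 27.7 (95% interval 20.52 to 38.3, counting error only), and 1014 of the Con-Veh reads came from Con-Veh 1 and 42 of the Con-DHT reads from Con-DHT 1. The ratio was 7.05 (5.10 to 9.94) without Con-Veh 1 and 453 (125 to 3741), from 2 Con-DHT reads, without Con-DHT 1. The call was lost without any 1 of 6 of the 8 libraries and held only without Con-Veh 4 (adjusted p = 0.037) or without Con-DHT 1 (adjusted p = 0.010). Adjusted p was 0.060 with edgeR and 0.081 with DESeq2.

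Sult2a2, the nearest relative of Sult2a1, lies at chr7:13733505-13779636 on the plus strand. The 4 Con-Veh livers had normalized counts of 861, 249, 128 and 22.6, and the 4 Con-DHT livers had 13.7, 0.968, 2.04 and 0. All Con-Veh livers were above all Con-DHT livers, although the lowest Con-Veh and highest Con-DHT values were only 22.6 and 13.7. The difference was -5.71 (SE 1.06, adjusted p = 0.011, limma), and 1195 reads in Con-Veh stood against 17 in Con-DHT, a ratio of 67.8 (42.2 to 117). Con-Veh 1 held 783 of these reads and Con-DHT 1 held 14 of the 17, and the ratio was 30.1 (18.5 to 52.1) without Con-Veh 1 and 285 (97.4 to 1385), from 3 Con-DHT reads, without Con-DHT 1. The spread among Con-Veh livers was large for both genes, with highest-to-lowest ratios of 41.3 for Sult2a1 and 38.0 for Sult2a2. The 4 Con-Veh livers took the same order for both genes, and Con-DHT 1 was the highest Con-DHT liver for both.

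Sult2a8 lies at chr7:14410686-14446769 on the minus strand. Normalized counts of Sult2a8 were 2163, 3681, 4768 and 4144 in Con-Veh and 12340, 11347, 10009 and 11956 in Con-DHT. Every Con-DHT liver was above every Con-Veh liver, and the lowest Con-Veh value was in Con-Veh 1, the liver with the highest Sult2a1 and Sult2a2. The difference was 1.68 (SE 0.21, adjusted p = 0.0013, limma), which is 3.21-fold with a 95% interval of 2.33 to 4.42. The coefficient of variation was 30.1% in Con-Veh and 8.95% in Con-DHT. Sult2a8 was the 248th largest increase of 14312 genes, while Sult3a1, Sult2a2 and Sult2a1 ranked 4, 8 and 9 among the decreases.

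Ratios between genes within a library hardly depend on how the library was scaled. The log2 ratio of Sult2a1 to Sult2a8 was -4.70 ± 2.68 (SD, n = 4) in Con-Veh and -11.7 ± 2.47 in Con-DHT, a difference of -7.04 (two-sided exact permutation p = 0.029 and adjusted p = 0.086 over 6 gene pairs, where 0.029 is the lowest value the design allows). The ratio of Sult2a2 to Sult2a8 differed by -7.39 (exact permutation p = 0.029, adjusted p = 0.086). Neither passed after adjustment over 6 pairs, and neither could with no other pair at the lowest value. For both pairs the groups were fully separate. These ratios reuse the values of the tests above and add no independent evidence. The ratio of Sult2a1 to Sult2a2 differed by 0.35 (exact permutation p = 0.66), and it rested on 0 to 42 reads per gene in Con-DHT, where Con-DHT 4 had 0 reads of either.

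**Figure D2:**
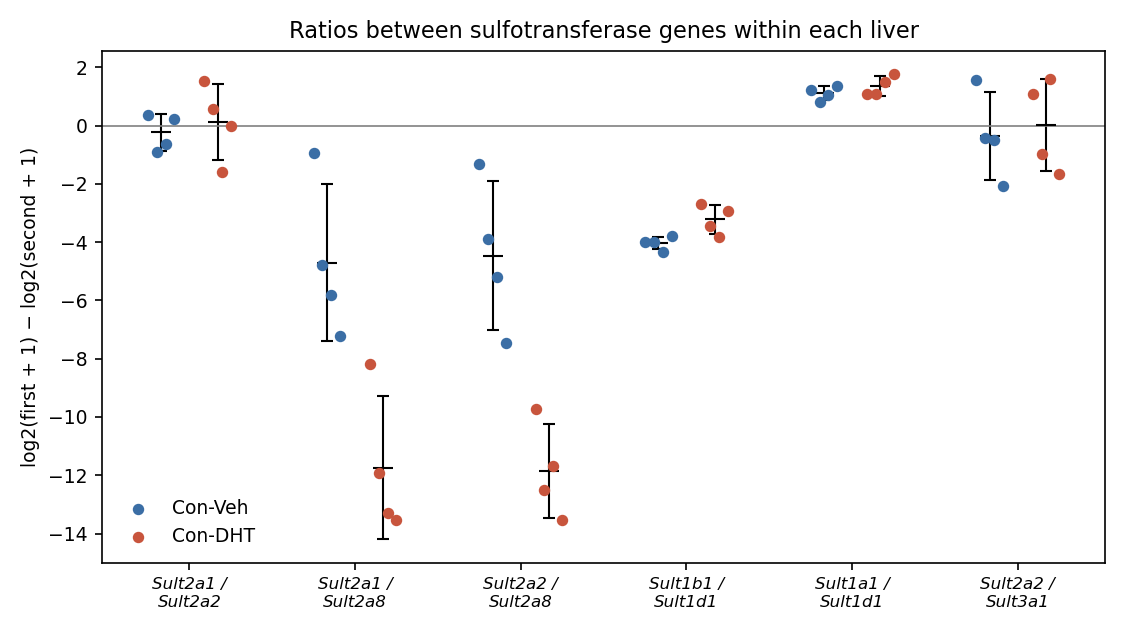
Log2 ratios between 6 pairs of sulfotransferase genes. The horizontal axis lists the pairs and the vertical axis gives log2(first gene + 1) minus log2(second gene + 1) of the normalized counts. Each point is 1 liver, and black marks are means and SDs over 4 livers. The groups separate for Sult2a1 to Sult2a8 and for Sult2a2 to Sult2a8 and overlap for the other 4 pairs.

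Sult3a1 lies at chr10:33857721-33879532 on the plus strand. The counts after normalization were 288, 332, 180 and 99.2 in Con-Veh and 5.89, 2.90, 0 and 2.17 in Con-DHT. The groups were far apart, and the lowest Con-Veh liver held 114 reads against at most 6 in any Con-DHT liver. The difference was -6.07 (SE 0.57, adjusted p = 0.00033, limma), and the pooled ratio was 78.9 (43.9 to 159) from 900 against 11 reads, of which 6 were in Con-DHT 1, and it was 129 (55.0 to 398) without that liver. The Con-Veh livers spanned a 3.35-fold range, and the SE was smaller than for Sult2a1 and Sult2a2. The ratio of Sult2a2 to Sult3a1 within a liver differed by 0.36 between the groups (exact permutation p = 0.83). In bulk liver RNA, fewer cells of a type and less RNA per cell cannot be told apart.

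Promoter windows, from 250 bases before to 50 after an annotated start site, were looked up for all 9 genes in RefSeq (GRCm38.p6). It matched 7 of the 9 genes, called or not, with 9 windows. Sult2a1 and Sult2a2 had no entry. The windows were searched on both strands for TTCNNNGAA, the core of sites bound by STAT5, ATCAAT, the core shared by HNF6 and CUX2, and AGGTCA, a nuclear receptor half-site. Those of Sult3a1 and Sult2a8 that held matches are printed 5′ to 3′ on the gene's strand, with capitals for the matched letters, because both genes passed the test. The Sult3a1 window, chr10:33857472-33857771 on the plus strand, had 1 match to TTCNNNGAA (first base at -109 from the start site) and 1 to ATCAAT in reverse complement (at -74).
Sult3a1: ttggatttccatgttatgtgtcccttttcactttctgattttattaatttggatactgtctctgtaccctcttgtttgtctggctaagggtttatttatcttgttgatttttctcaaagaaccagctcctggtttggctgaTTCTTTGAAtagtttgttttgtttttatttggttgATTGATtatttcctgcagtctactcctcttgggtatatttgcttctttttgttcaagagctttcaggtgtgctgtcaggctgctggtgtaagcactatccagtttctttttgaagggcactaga
Sult2a8 had 2 windows, and the one at its annotated 5′ end, chr7:14446538-14446837, had no match to any of the 3 motifs. The other, chr7:14438502-14438801 on the minus strand, had 2 matches to ATCAAT (at -147 and -114) and 2 to AGGTCA (at -164 and -90).
Sult2a8: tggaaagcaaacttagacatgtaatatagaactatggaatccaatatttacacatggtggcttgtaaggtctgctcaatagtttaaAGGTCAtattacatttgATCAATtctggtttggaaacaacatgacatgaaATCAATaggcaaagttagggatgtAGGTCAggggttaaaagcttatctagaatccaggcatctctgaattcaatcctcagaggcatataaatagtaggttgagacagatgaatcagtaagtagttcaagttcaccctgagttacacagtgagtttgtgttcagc
Of 32851 windows of the same length, 8.30% held TTCNNNGAA, 7.54% ATCAAT and 16.3% AGGTCA. Of the other 5 genes, Sult1b1, which did not pass the test, also had 2 matches to AGGTCA (at -123 and 38) in 1 of its windows, and the windows of Sult1a1, Sult1c2, Sult1d1 and Sult5a1 had none of the 3 motifs. A match is a run of letters in the reference and no measurement of binding.

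Sult1a1, the phenol sulfotransferase at chr7:126672865-126676432 on the minus strand, was the most abundant of the 9 genes in Con-Veh. Its normalized counts were 6369, 4422, 5950 and 6683 in Con-Veh and 3033, 5285, 6313 and 4423 in Con-DHT. The groups overlapped, and the difference was -0.33 (95% interval -0.80 to 0.14, adjusted p = 0.39, limma). Its exons share 61 bases with Sgf29 on the opposite strand, and whether counting used strand is not given in the sources used here.

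Sult1d1, at chr5:87554645-87569027 on the minus strand, encodes an enzyme known in mice for sulfating catecholamines. Its normalized counts were 2727, 2499, 2857 and 2597 in Con-Veh and 1438, 2463, 2224 and 1295 in Con-DHT. Con-Veh livers varied little (coefficient of variation 5.84%), Con-DHT livers more (31.02%), and the groups did not overlap, although Con-DHT 2 was close to the lowest Con-Veh liver. The difference was -0.58 (95% interval -0.99 to -0.16, adjusted p = 0.095, limma) and was called only without Con-DHT 2 (adjusted p = 0.040). The ratio of Sult1a1 to Sult1d1 differed by 0.25 between the groups (exact permutation p = 0.29).

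Sult1b1, at chr5:87513339-87538195 on the minus strand, encodes an enzyme that acts on phenols and thyroid hormones. Its normalized counts were 169, 155, 142 and 185 in Con-Veh and 225, 224, 158 and 168 in Con-DHT, with overlap and a difference of 0.24 (95% interval -0.09 to 0.56, adjusted p = 0.37, limma). Its ratio to the neighbouring Sult1d1 was -4.03 ± 0.22 in Con-Veh and -3.22 ± 0.51 in Con-DHT (SD, n = 4, log2), a difference of 0.81 with an exact permutation p of 0.057 and an adjusted p of 0.11.

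Sult1c2, at chr17:53829637-53846339 on the minus strand, had normalized counts of 69.3, 85.9, 124 and 80.1 in Con-Veh and 86.3, 70.6, 52.1 and 40.2 in Con-DHT. The groups overlapped, and the difference was -0.54 (95% interval -1.11 to 0.02, adjusted p = 0.23, limma). Sult5a1, at chr8:123140192-123158315 on the minus strand, had 75.9, 69.5, 82.9 and 56.6 in Con-Veh and 138, 197, 37.8 and 102 in Con-DHT. Of the Con-DHT livers, 3 were above all Con-Veh livers and Con-DHT 3 was below them all. Its difference was 0.52 (95% interval -0.40 to 1.44, adjusted p = 0.50, limma), and it was called only without Con-DHT 3 (0.99, adjusted p = 0.039).

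Levels were compared between genes only per kilobase of merged exons. In Con-Veh the order of mean levels was Sult1a1 (3886), Sult2a8 (1123), Sult1d1 (1086), Sult2a2 (425), Sult2a1 (332), Sult3a1 (194), Sult1b1 (58.6), Sult1c2 (48.6) and Sult5a1 (16.1). The ranges of neighbouring genes overlapped from Sult2a8 through Sult3a1 and between Sult1b1 and Sult1c2, so those places in the order are not separated by the spread over 4 livers. In Con-DHT, Sult2a8 (3475) and Sult1a1 (3161) headed the order with overlapping ranges, followed by Sult1d1 (754) and Sult1b1 (69.7), each separated from the next gene. Sult1c2, Sult5a1, Sult2a1, Sult2a2 and Sult3a1 closed it, from 33.8 down to 2.37, with overlapping ranges between neighbours.

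The summed level of the 9 genes per kilobase was 7170 ± 1099 in Con-Veh and 7540 ± 790.2 in Con-DHT (SD, n = 4). With merged exon lengths the sums thus differed by less than the spread within a group. A shorter length for Sult2a8 would widen that gap, so equal sums are not shown. The make-up of the sum differed. Sult2a8 gave 16.2% of it in Con-Veh (7.65% to 20.4%) and 46.8% in Con-DHT (37.0% to 57.1%), and the groups did not overlap. Sult1a1 gave 54.3% and 41.3%, with overlapping groups, and Sult1d1 15.3% and 9.87%. Sult2a1, Sult2a2 and Sult3a1 gave 4.09%, 5.50% and 2.78% in Con-Veh and 0.16%, 0.083% and 0.034% in Con-DHT. In Con-Veh 1, Sult2a1 and Sult2a2 gave 12.7% and 13.5%, more than in any other liver. These shares follow from the same values as the tests above and add no independent evidence.

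**Figure D3:**
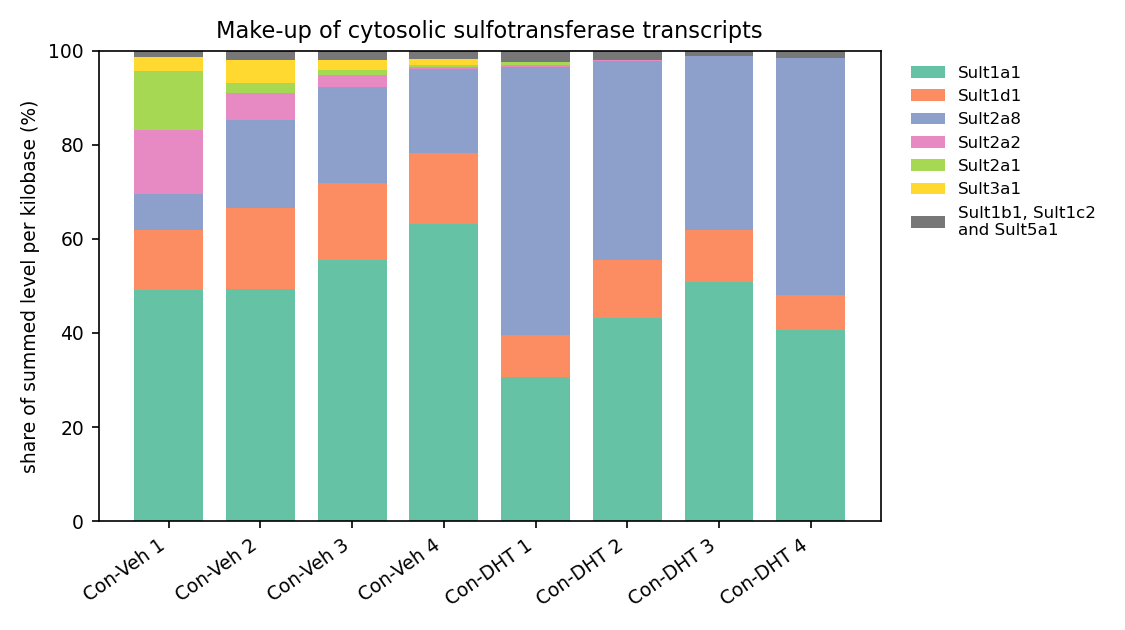
Make-up of the cytosolic sulfotransferase transcripts in each liver. Each bar is 1 liver, and its segments are the shares (%) of the summed normalized counts per kilobase of exon of the 9 genes, with Sult1b1, Sult1c2 and Sult5a1 together in grey. The Sult2a8 segment spans 7.65% to 20.4% in Con-Veh and 37.0% to 57.1% in Con-DHT.

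The table held 2 other cytosolic sulfotransferase genes. Sult2a7, which matches Sult2a1 at 81.2% of 852 aligned coding bases, had 46.2, 139, 47.9 and 47.9 in Con-Veh and 17.7, 50.3, 37.8 and 18.5 in Con-DHT, with a difference of -1.11 (adjusted p = 0.15, limma). Sult4a1, a form mainly known from brain, had 27.5, 35.7, 33.9 and 30.5 in Con-Veh and 103, 48.4, 35.7 and 39.1 in Con-DHT. The highest Con-Veh and the lowest Con-DHT value were both 35.7, and the difference was 0.68 (adjusted p = 0.21, limma).

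None of the 6 genes that make, carry or break down PAPS passed the test, with 0 also at an unadjusted p under 0.05 and 0 by edgeR or DESeq2. Papss2, the main PAPS synthase of the liver, averaged 2433 ± 315 in Con-Veh and 1999 ± 481 in Con-DHT (SD, n = 4), a difference of -0.31, and Papss1 differed by 0.25. The phosphatases Bpnt1 and Bpnt2 and the Golgi carriers Slc35b2 and Slc35b3 had differences between -0.05 and 0.10. Across the lists of genes around sulfation, 11 of 80 tested genes (13.8%) passed, 5 higher and 6 lower, against 7.21% of all tested genes (4.60% higher and 2.61% lower), with a median difference of -0.05. With DESeq2, 15 of the 80 passed, against 11.0% of all tested genes. By list, 1 of 11 genes of sulfate uptake and formation passed (9.09%), 1 of 12 sulfatase genes (8.33%) and 2 of 17 Golgi sulfotransferase genes (11.8%), shares near that of all tested genes and so no result about those lists. Of the transcription factor genes 4 of 22 passed (18.2%) and of the transporter genes 3 of 10 (30%), and no list was tested as a whole.

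Cdo1, which starts the breakdown of cysteine towards sulfate, fell by 0.39 (adjusted p = 0.047), and Arsa, a lysosomal sulfatase of glycolipids, rose by 1.35 (486 ± 94.9 in Con-Veh and 1225 ± 91.3 in Con-DHT, adjusted p = 0.00049, both limma). Of the Golgi enzymes, Tpst2, which sulfates tyrosines of secreted proteins, fell by 0.46 with overlapping groups. Chst11, a chondroitin sulfotransferase, rose by 1.89 from a low level of 16.2 ± 8.01 to 58.4 ± 13.7. Of the transcription factors, Foxa2 fell by 0.54 and Nfe2l2 by 0.40. Bcl6, a repressor with higher expression in male liver, rose by 0.93 (adjusted p = 0.045, limma). Its groups overlapped, with Con-Veh values up to 840 and Con-DHT values from 817. Of 10 transporters of sulfate conjugates, 2 were called higher and 1 lower, and the median difference of the list was 0.015. Slco1a1, an uptake carrier, rose by 2.88 (adjusted p = 0.0011), Abcg2, an efflux pump, rose by 0.99 (adjusted p = 0.0010), and Slco1a4, another uptake carrier, fell by 0.87 (adjusted p = 0.020, all limma).

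**Figure D4:**
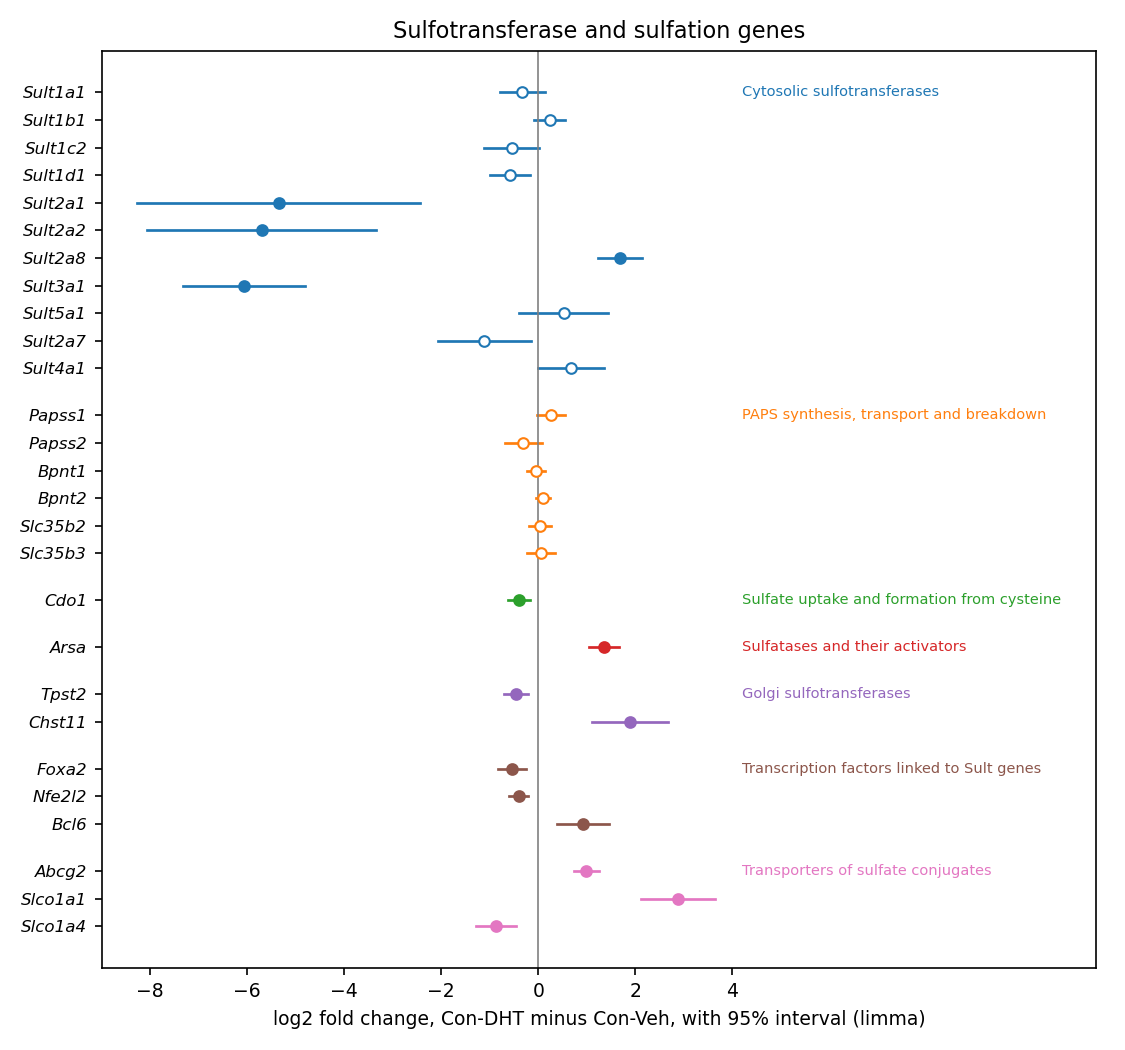
Differences of the 9 genes, of Sult2a7 and Sult4a1, of the 6 PAPS genes and of called genes of the other lists. The horizontal axis is the log2 fold change (Con-DHT minus Con-Veh) with its 95% interval from limma, and filled points have an adjusted p of at most 0.05. Sult2a1, Sult2a2 and Sult3a1 lie between -5.35 and -6.07 and Sult2a8 at 1.68, while the PAPS genes lie between -0.31 and 0.25.

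The hepatocyte markers Alb, Ttr, Apoa1 and Cps1 were abundant, with a summed level of 742781 to 1545340 in Con-Veh and 778894 to 960544 in Con-DHT, and none of these 4 was called. Summed Kupffer cell and sinusoidal endothelial markers were lower in Con-DHT. The summed level of 6 Kupffer cell markers was 5357 to 6766 in Con-Veh and 3636 to 4932 in Con-DHT, with 3 of 6 called and all 3 lower, and that of 5 sinusoidal endothelial markers was 3021 to 3359 and 2220 to 2541, with 2 of 5 called and both lower. Over all tested genes, 2.61% were called lower. Not each marker fell, and the endothelial marker Kdr differed by 0.0003 (adjusted p = 0.999, limma). The part of these cells in the changes of the sulfotransferase genes was not tested. None of the stellate cell, cholangiocyte or B cell markers was called. Reads on mouse genes were 14240001 to 17815944 per Con-Veh library and 13123962 to 15205299 per Con-DHT library, and 3 reads, a floor for counting, equalled a normalized count of 2.61 to 3.30.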

How the data were processed

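Libraries were grouped by the treatment label, and all 8 were used, with 1 library per mouse. Per the labels and the study's methods, the authors trimmed reads with Trimmomatic, aligned them with STAR to GRCm39, counted reads that mapped uniquely to exons (featureCounts) and used DESeq2. What was deposited is a signal normalized by the authors, in which each library's read counts are divided by its size factor. Division by the smallest step gave whole reads for 100% of values (tolerance 0.01), which were used for the count tests (edgeR called 1024 genes and DESeq2 1569). The table lists no feature with fewer than 81 reads in all. It holds 54 spike-in transcripts, which were left out of the test.

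Values were taken as log2(value + 1), a scale that understates changes of low genes, where the mean of a mouse gene reached 10, and tested with limma 3.58.1 (lmFit, eBayes with an intensity trend, two-sided) in R 4.3.3. P-values were adjusted by Benjamini-Hochberg, with 0.05 as the threshold. The limma fit called 1032 genes. Alternatives were pseudocounts of 0.1 and 5, no filter, a mean of at least 50, quantile, upper quartile and spike-in scaling, no trend, a replicate block, edgeR 4.0.16 (quasi-likelihood, TMM), DESeq2 1.42.0 and each library left out. Ratios were tested by exact permutation over 70 arrangements. Named were every member, every called gene of the lists (1 that the rule names is not reported here), every PAPS gene and, for each called member, the 3 genes with the most similar deviations. Sult2a7 and Sult4a1 are named outside that rule, after their values were seen. Members and lists were chosen with earlier results of these data known. Libraries of the same group differed far beyond sampling noise (chi-square per degree of freedom 19.5 to 62.9 over 12 pairs). Intervals on pooled reads cover counting error only. The tests were tried on simulated counts. GENCODE M21 and RefSeq sequences are on GRCm38, another build than the authors', and matched by gene identifier or symbol. Python 3.11.15 with pandas 2.3.3, scipy 1.17.1 and matplotlib 3.10.9 made the summaries and plots.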

Additional observations from a re-analysis of the deposited data

How the results depend on the processing

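The number of sulfotransferase genes called was 3 or 4 of 9 under all 19 alternatives, and Sult2a2, Sult2a8 and Sult3a1 were called in each, while no gene of the 9 changed sign. Sult2a1 was the exception, called in 7 of 11 settings and in 2 of 8 fits without a library, with adjusted p of 0.0502 at a mean of at least 50, 0.076 without the trend, 0.060 with edgeR and 0.081 with DESeq2. Its log2 difference ranged from -6.57 to -4.34 without a library and from -7.14 to -3.93 with the pseudocount. Sizes moved by over 1.5 times for the other decreases too, from -6.63 to -4.90 without a library and -6.89 to -4.41 with the pseudocount for Sult2a2, and from -6.46 to -5.54 and -7.16 to -4.81 for Sult3a1. Sult2a8 ranged from 1.45 to 1.83 without a library. Spike-in scaling moved the median of all genes to 0.19 and gave 562 higher and 75 lower calls (637 in all), against 658 and 374, and all 9 genes kept their direction there. Its p-values took no account of each gene's own spread, since limma's prior degrees of freedom were infinite there.

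Over all genes, 648 were called at a mean of at least 50 and 1569 with DESeq2, and 638 to 897 without a library, the lowest without Con-Veh 4. Of the list genes, 6 were called without the trend, 7 with the replicate block and 4 to 8 without a library. The ratio of Sult2a1 to Sult2a2 changed sign with a pseudocount of 0.1 (-0.25) and ranged from -0.11 to 0.93 without a library, and that of Sult2a2 to Sult3a1 ranged from -0.21 to 1.01. The ratios that separated the groups moved by over 1.5 times with no change of sign, Sult2a1 to Sult2a8 from -8.82 to -5.61 with the pseudocount and -8.22 to -5.79 without a library, and Sult2a2 to Sult2a8 from -8.57 to -6.09 and -8.39 to -6.34. Pooled read ratios without a library, added after seeing the data, ran from 7.05 to 453 for Sult2a1, 30.1 to 285 for Sult2a2 and 59.4 to 129 for Sult3a1. The causes were not tested. Same-numbered libraries did not vary together (correlations -0.19, -0.0060, -0.022 and -0.076 over genes). These values show no pairing of mice by number, but so few pairs cannot exclude one. With the replicate block, 4 of the 9 genes and 700 of all genes were called. With 1 library out, the ratio tests cannot go below an exact permutation p of 0.057. Depth limits Sult2a1, Sult2a2 and Sult3a1 in Con-DHT, where most libraries held 0 to 6 reads.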

Other observations

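The genes whose deviations from the group means most resembled those of each called sulfotransferase gene were searched among 10706 genes with a mean of at least 50, over 8 libraries that share these animals. For Sult2a1 these were Jun (Pearson r = 0.995), an immediate-early transcription factor, Tmem80 (0.957) and Chsy3 (0.947), and for Sult2a2 they were C9orf72 (0.962), Tnfsfm13 (0.942) and P2ry2 (0.936). For Sult2a8 they were Usp24 (0.993), Gpam (0.982), an acyltransferase of triglyceride synthesis, and Tmem204 (0.978), and for Sult3a1 they were Mid2 (0.974), Ank1 (0.967) and Aebp2 (0.966). The number of genes at r of 0.9 or more was 13 for Sult2a1, 14 for Sult2a2, 39 for Sult2a8 and 34 for Sult3a1. Among 10706 genes and over 8 libraries, such values of r also arise by chance. How many would do so was not worked out, so the counts are no result. None of the 12 genes passed the test between the groups, and the values are a description of 8 libraries with no test. Jun, the gene nearest to Sult2a1, had 751 in Con-Veh and 552 in Con-DHT as group means.

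No value of the 9 genes stood apart in its group by Dixon's test, in 18 groups of 4 libraries tested on the log2 scale. With 4 libraries the test can flag only an extreme value, and the log2 scale draws high values in. It therefore does not show that no liver was unusual. Con-Veh 1 held 1014 of the 1264 Con-Veh reads of Sult2a1.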
